A study of Mus musculus with 6 samples.

Results

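MHC class I molecules on a cell surface present peptides cut from the cell's own proteins, and the genes described here make, carry and load those peptides. The set holds 9 genes, chosen by name for their place in class I antigen processing: B2m, H2-T23, Tap1, Tap2, Tapbp, Psmb8, Psmb9, Psmb10 and Nlrc5. They were chosen with earlier results of these data known. Of these, 6 genes were named by 11 of the 45141 probe sets in the annotation used here, which names a single gene for 28898 probe sets and 17097 genes in all. The other 3, B2m, Tap1 and Tap2, had no probe set naming them and were not analysed here. The study compared activated blood T cells that carry CD11c, the integrin chain that usually marks dendritic cells, with those that do not. CD3+ CD62L- CD44high cells of 3 female C57BL/6 mice aged 6 to 8 weeks, labelled A, C and D, were separated by CD11c into fractions of 300 cells each, CD11c+ and CD11c-, and RNA of each of the 6 samples was amplified and hybridised to 1 Affymetrix array of its own. All 3 mice had received 3 mg of Depo-Provera, a progestin, 5 days earlier by the sample labels, and no group without the hormone was analysed here. The arrays measured the RNA of a sorted pool, in which fewer cells of a type and less RNA per cell cannot be told apart.

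In class I processing, proteins are cut by the proteasome, and peptides are carried by the TAP transporter into the endoplasmic reticulum, where tapasin helps to load them onto a heavy chain paired with β2-microglobulin. Interferon-γ and haematopoietic cell identity favour the immunoproteasome, in which the catalytic subunits encoded by Psmb8, Psmb9 and Psmb10 take the places of those encoded by Psmb5, Psmb6 and Psmb7. NLRC5 is a transactivator of class I heavy chain, B2m, Tap1 and Psmb9 genes, and a relative of CIITA, the transactivator of MHC class II.

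The upstream sequences of a few of these genes are shown because interferon factors and the NLRC5 complex are known to act at such promoters. They are RefSeq sequences of the mouse build GRCm38.p6, which the values themselves do not name. The letters searched on both strands were GAAANNGAA, found in interferon-stimulated response elements, TTCNNNGAA, found in STAT sites, CCAAT, bound by NF-Y, and TGACG, part of cyclic AMP response elements, and capitals mark each match. In 250 bases before the start of H2-T23 (chromosome 17, minus strand, chr17:36032702-36032951) there was 1 match to the first and 1 to CCAAT. In 250 bases before the start of Psmb8 (plus strand, chr17:34197945-34198194) there was 1 match to the STAT letters. Psmb9 and Tap1 lie head to head, with 225 bases between their starts (plus strand, chr17:34187331-34187555), which held 1 CCAAT and 1 TGACG.
H2-T23: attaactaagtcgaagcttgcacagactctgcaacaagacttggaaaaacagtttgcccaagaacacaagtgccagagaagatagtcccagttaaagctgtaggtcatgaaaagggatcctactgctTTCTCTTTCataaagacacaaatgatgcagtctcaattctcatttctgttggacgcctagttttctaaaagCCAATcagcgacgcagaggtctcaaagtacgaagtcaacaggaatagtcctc
Psmb8: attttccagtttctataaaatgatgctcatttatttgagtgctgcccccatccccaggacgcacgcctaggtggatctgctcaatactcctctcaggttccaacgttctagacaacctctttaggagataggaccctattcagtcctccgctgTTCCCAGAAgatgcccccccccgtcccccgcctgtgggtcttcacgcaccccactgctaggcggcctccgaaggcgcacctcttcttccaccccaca
Psmb9 to Tap1: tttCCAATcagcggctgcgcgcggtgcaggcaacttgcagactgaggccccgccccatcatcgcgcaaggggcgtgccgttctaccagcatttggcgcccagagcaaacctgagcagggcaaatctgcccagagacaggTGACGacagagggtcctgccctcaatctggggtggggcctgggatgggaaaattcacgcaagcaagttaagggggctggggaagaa

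Among 32817 promoters of the same table, 7.12% held the interferon element letters in the 250 bases before the start, 7.01% the STAT letters, 33.8% CCAAT and 17.7% TGACG. A match is a description of the letters and no sign of binding. The same window of B2m held 1 match each to the interferon element letters, CCAAT and TGACG. That of Tapbp held 2 CCAAT, and that of Psmb10 none of these letters. Of the constitutive counterparts, Psmb5 held 1 TGACG and Psmb6 2. Tap2 and Nlrc5 had no entry among these promoters, and the window of Psmb7 is not described here.

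The class I processing genes did not pass the test of a difference between the fractions. The values are log2 signals made by the authors with RMA, and the difference is CD11c+ minus CD11c- from limma with the mouse as a block, adjusted by Benjamini-Hochberg over all probe sets. At an adjusted p under 0.05, 0 of the 6 genes were higher and 0 lower, beside 0.957% of all probe sets higher and 0.168% lower. At an unadjusted p under 0.05, 0 of the 6 genes passed in either direction, and of their 11 probe sets 0 were higher and 1 lower, beside 6.28% and 7.21% of all probe sets. Each gene is given by its brightest probe set. The 6 differences lay between -0.33 and 0.24, their median was -0.12, and the median over all probe sets was -0.09. All 6 were smaller in size than 0.5 on the log2 scale, as were 70.4% of the 13001 probe sets with a mean above background. A mean counts as above background here when it exceeds 5.79 on the log2 scale, which 95% of 36 genes specific to other tissues stayed under. The 6 probe sets lay well above it on every array, so these RNAs were measured in both fractions.

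**Figure D1:**
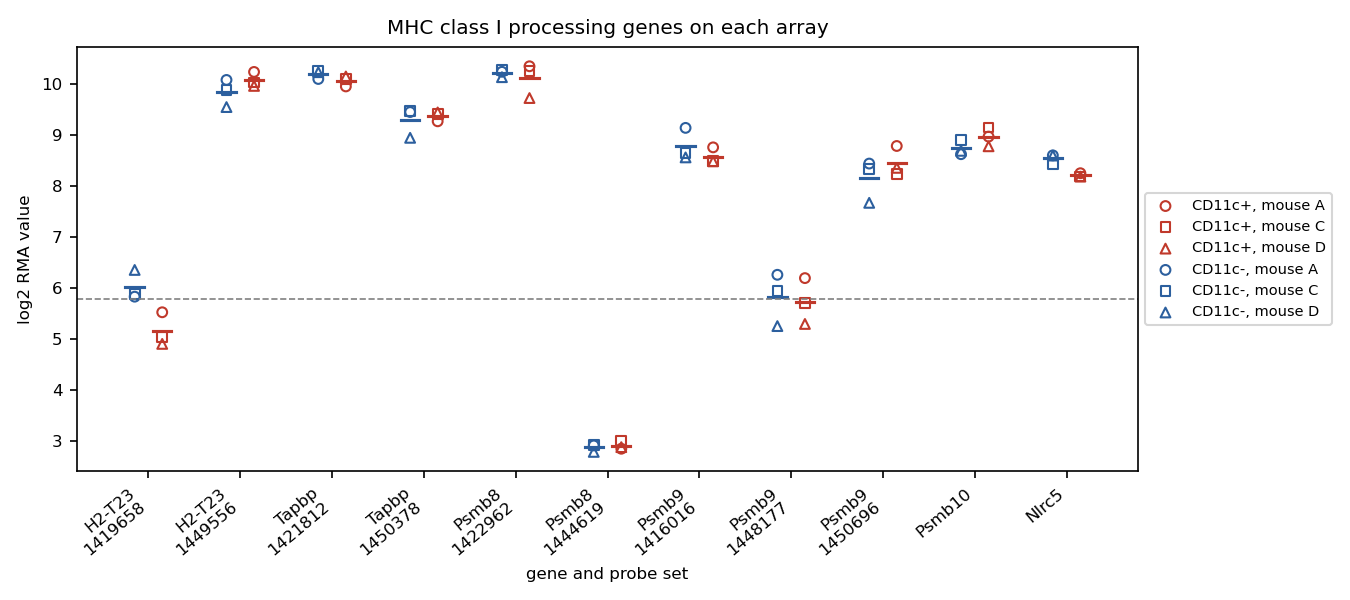
Log2 RMA values (vertical axis) of the 11 probe sets of the 6 genes (horizontal axis) on each array, with colour for the fraction, marker shape for the mouse, a short bar at each fraction's mean and the background of 5.79 dashed. The fractions overlap for every probe set but the dimmer one of H2-T23 and that of Nlrc5.

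The sort could be checked on the same arrays. Itgax, which encodes CD11c, had log2 values of 8.93, 9.06 and 8.93 in the CD11c+ cells of mice A, C and D and of 5.80, 3.88 and 4.12 in the CD11c- cells, a difference of 4.37 (adjusted p = 0.0387 from limma). The CD11c- mean was not above the background defined above, which makes the difference at least 9.09-fold by the means of the fractions. The 12 measured T cell markers were above background in both fractions and had a median difference of -0.82, with 2 lower at an adjusted p under 0.05. Markers of several other cell types were higher in the CD11c+ fraction at the same threshold, beside 0.957% of all probe sets. Of 18 markers of monocytes and macrophages 9 were higher and 0 lower, and their mean log2 level per array ran from 7.57 to 7.89 in CD11c+ and from 5.33 to 5.50 in CD11c- cells. Of 14 markers of conventional dendritic cells 7 were higher, with mean levels of 7.85 to 8.09 against 5.12 to 5.44. The defining markers Xcr1 and Zbtb46, however, were not above background in either fraction. The dendritic list shares Irf8 and Ciita with the regulators below. It also shares Klrd1 (adjusted p = 0.0344, limma) with the NK cell list, so that Klrd1 counts as higher in both. Of 10 markers of neutrophils, 6 of plasmacytoid dendritic cells and 6 of platelets or erythroid cells, 1 each was higher. Their median differences were -0.05, -0.17 and 0.37. Of 11 markers of NK cells 4 were higher and 1 lower, and of 11 of B cells 2 were higher. Of 11 markers of basophils and mast cells 9 were higher, with mean levels of 7.92 to 8.66 against 3.86 to 4.09. These cells also express class I processing genes, and their part in the class I values was not tested.

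H2-T23 encodes the heavy chain of Qa-1, a class Ib molecule that presents signal peptides of other class I chains to NK cell receptors. By its brighter probe set its log2 values were 10.24, 10.04 and 9.97 in the CD11c+ cells of mice A, C and D and 10.09, 9.89 and 9.56 in the CD11c- cells. The CD11c+ value was the higher one in 3 of 3 mice, but the fractions overlapped. The difference was 0.24 (standard error 0.136, adjusted p = 0.562, limma), with a 95% interval from -0.12 to 0.61. Its other probe set went the opposite way, with 5.53, 5.05 and 4.91 in CD11c+ and 5.84, 5.88 and 6.36 in CD11c- cells. Those values lie around the background, and the mean of CD11c+ cells, 5.16, was not above it. They did not overlap, and the difference was -0.86 (unadjusted p = 0.0233, adjusted p = 0.265, limma). It is not exact, since 1 side was at background. The probe sets of this gene thus disagree in direction, and class Ib genes are near-identical in places, so that either may also read RNA of a paralog.

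Tapbp encodes tapasin, which bridges the TAP transporter and the class I heavy chain. Its log2 values were 9.96, 10.11 and 10.16 in CD11c+ and 10.11, 10.26 and 10.24 in CD11c- cells of mice A, C and D. The mouse pairs differed by 0.15 at most and the fractions overlapped. The difference was -0.13 (adjusted p = 0.729, limma) with an interval from -0.46 to 0.20, that is from 0.728-fold to 1.15-fold. The other probe set of Tapbp had a difference of 0.08 (adjusted p = 0.877, limma) and was higher in mouse D alone, by 0.50.

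The 3 immunoproteasome genes were at high levels in both fractions. Psmb8, which encodes the chymotrypsin-like subunit β5i, had log2 values of 10.36, 10.27 and 9.73 in the CD11c+ and 10.25, 10.29 and 10.14 in the CD11c- cells of mice A, C and D. The CD11c+ array of mouse D was the lowest of the 6, and the fractions overlapped. The difference was -0.11 (adjusted p = 0.818, limma; interval from -0.54 to 0.33), or 0.05 without mouse D. A second probe set naming Psmb8 lay far below background on all 6 arrays, between 2.79 and 3.01, and gives no information on it.

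Psmb9, which encodes the subunit β1i, had log2 values of 8.77, 8.50 and 8.49 in CD11c+ and 9.15, 8.66 and 8.57 in CD11c- cells. Both values of mouse A were the highest of their fraction, and the CD11c+ value was the lower one in 3 of 3 mice. The difference was -0.21 (adjusted p = 0.621, limma; interval from -0.57 to 0.16). A second probe set of similar brightness gave 8.79, 8.24 and 8.36 against 8.45, 8.35 and 7.68. Its difference was 0.31 (adjusted p = 0.608, limma; interval from -0.22 to 0.84), and another one, near background, had -0.09 (adjusted p = 0.825, limma). The direction for Psmb9 therefore depends on the probe set, and the mean of all 3 gave 0.01. The annotation used here assigned all 3 to Psmb9, and whether each reads Psmb9 RNA alone was not tested.

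Psmb10, which encodes the subunit β2i, had log2 values of 8.98, 9.16 and 8.79 in CD11c+ and 8.63, 8.91 and 8.70 in CD11c- cells. It was higher in the CD11c+ cells of 3 of 3 mice, by 0.35, 0.25 and 0.09, with overlap between the fractions. The difference was 0.23 (adjusted p = 0.574, limma; interval from -0.13 to 0.58), that is from 0.915-fold to 1.5-fold.

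Nlrc5, the transactivator, had the largest difference in size of the 6 genes in the values as deposited, while after cyclic loess H2-T23 and Psmb10 were larger in size. Its log2 values were 8.26, 8.20 and 8.19 in CD11c+ and 8.61, 8.43 and 8.60 in CD11c- cells of mice A, C and D. The fractions did not overlap, as for 2 of the 11 probe sets of these genes and 18.9% of all probe sets. The difference was -0.33 (standard error 0.128, unadjusted p = 0.0538, adjusted p = 0.381, limma), with an interval from -0.68 to 0.01 and a lower value in 3 of 3 mice. Ciita, its class II relative, had the opposite sign, with log2 values of 5.91, 6.43 and 5.69 in CD11c+ and 4.72, 4.77 and 4.41 in CD11c- cells. Its difference of 1.38 missed the threshold (adjusted p = 0.0501, limma). Its CD11c- mean was not above background, and the CD11c+ value of mouse D, 5.69, was under the background too. The CD11c+ mean of Ciita was 1.16-fold the background level. This makes no allowance for the spread between mice and sets no lower bound on a rise. The other probe sets of Ciita, not above background in either fraction, had 1.06 and 0.93 (adjusted p = 0.352 and 0.0966, limma). The difference between Nlrc5 and Ciita was not tested.

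**Figure D2:**
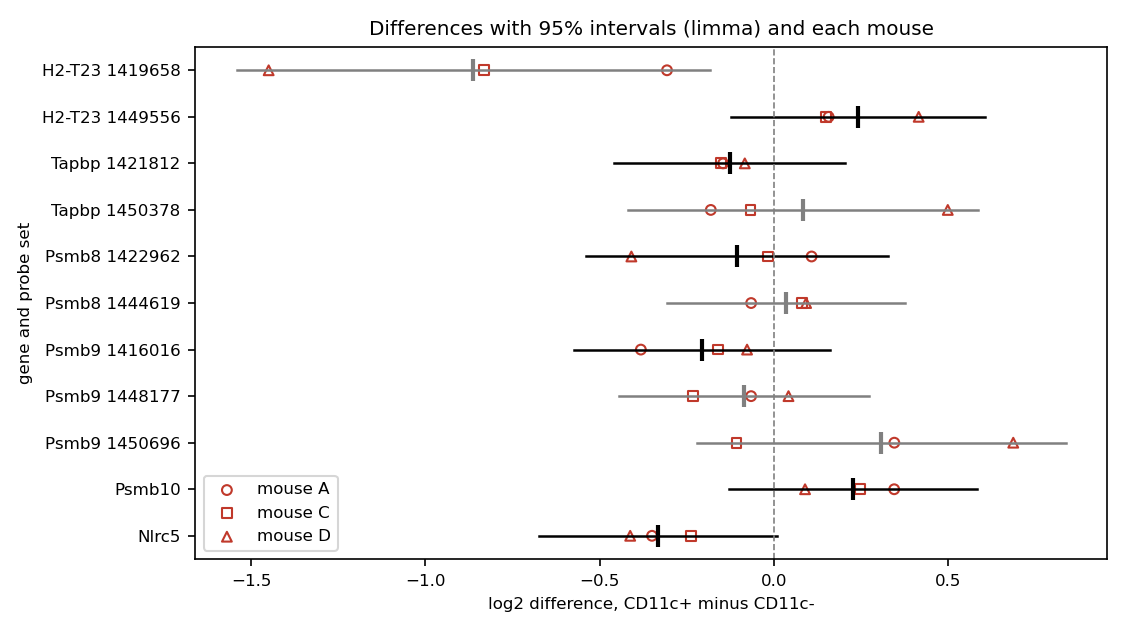
Log2 difference between the fractions (horizontal axis) for each probe set (vertical axis), with red symbols for each mouse, ticks for the limma estimate and lines for its 95% interval, black for the probe set that represents a gene and grey for the others. Every interval but that of the dimmer H2-T23 probe set includes 0, and centring the arrays on the CD3 chains moves all estimates up by 0.74.

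Whether the immunoproteasome genes moved apart from the subunits they replace was asked within each mouse. Psmb5, the counterpart of Psmb8, had a difference of -0.27 between the fractions (adjusted p = 0.531, limma), Psmb6, that of Psmb9, one of -0.17 (adjusted p = 0.787, limma) and Psmb7, that of Psmb10, one of 0.37 (adjusted p = 0.753, limma). The difference of Psmb8 less that of Psmb5 was 0.57, 0.09 and -0.18 in mice A, C and D, a mean of 0.16 ± 0.381 (SD, n = 3, exact sign-flip permutation p = 0.75, two-sided). For Psmb9 less Psmb6 it was -0.21, -0.44 and 0.52 (mean -0.04 ± 0.502, exact permutation p = 1.0). For Psmb10 less Psmb7 it was -0.63, -0.68 and 0.86 (mean -0.15 ± 0.876, exact permutation p = 1.0). The adjusted p over the 3 pairs was 1.0 for each. Neither sign was shared by all mice in any pair, and with 3 mice this test cannot go below 0.25. Psmb7 was the most variable of these genes, with differences of 0.97 and 0.93 in mice A and C and -0.78 in mouse D.

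**Figure D3:**
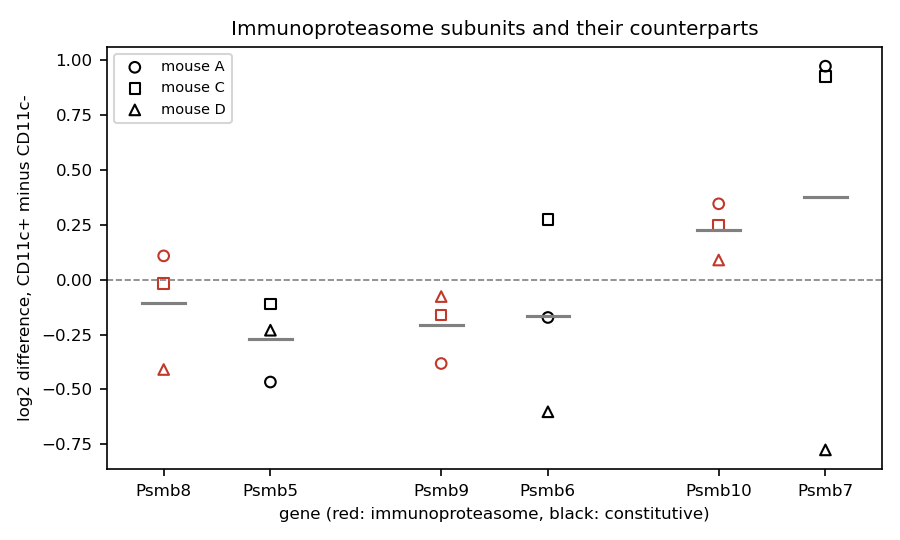
Log2 difference between the fractions (vertical axis) in each mouse (marker shape) for the 3 immunoproteasome genes (red) and their constitutive counterparts (black), with grey bars for the mean of 3 mice. The ranges of each pair overlap, and Psmb7 spreads most, from -0.78 to 0.97.

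The rest of the class I pathway was read from 7 lists of 101 measured genes. Of these, 3 were higher and 0 lower at an adjusted p under 0.05, beside 0.957% of all probe sets higher and 2.21% of the 13001 above background. The proteasome lists held none of them. The 14 constitutive genes of the 20S core had a median difference of -0.09 and ran from -0.38 for Psma3 (adjusted p = 0.347, limma) to 0.37 for Psmb7. The 18 genes of the 19S cap, which feeds substrates into the core, had a median of -0.11 and ran from -0.64 for Psmd12 (adjusted p = 0.372, limma) to 0.60 for Psmd13 (adjusted p = 0.616, limma), which was lower in mouse C. The 8 genes of the activator and of assembly factors had one of -0.14. They ran from -0.63 for Psmg1 (adjusted p = 0.371, limma) to 0.40 for Psmg3 (adjusted p = 0.307, limma), both assembly chaperones, the latter not above background in either fraction. The same list gave -0.11 for Psme1 and -0.30 for Psme2, the interferon-inducible PA28 subunits (adjusted p = 0.778 and 0.466, limma). Among 10 genes of peptide loading in the endoplasmic reticulum, median -0.02, none passed, and Hspa5, a chaperone, had the highest value, 0.68 (adjusted p = 0.165, limma). The lowest estimate was that of Pdia3, whose probe set was not above background in either fraction and measures no difference. Among 7 peptidases that trim peptides, median -0.05, none passed, with a range from -0.37 for Tpp2 to 0.59 for Nrd1 (adjusted p = 0.396 and 0.637, limma), the latter with -0.24, 0.29 and 1.73 in mice A, C and D.

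Of 18 measured class I and class I-like heavy chain genes, 1 was higher, 0 were lower and 17 did not pass, and the median difference was -0.07. Of the 18, 7 were not above background in either fraction. H2-K1 and H2-D1 encode the classical chains. H2-K1 had log2 values of 12.11, 12.21 and 12.28 in CD11c+ and 12.23, 12.31 and 12.28 in CD11c- cells of mice A, C and D, a difference of -0.07 (adjusted p = 0.836, limma; interval from -0.41 to 0.26). H2-D1 had a difference of -0.04 (adjusted p = 0.91, limma; interval from -0.38 to 0.29). Class I chains are alike in sequence, so that the probes of 1 chain may also bind RNA of another. Hfe, a class I-like protein that regulates iron uptake and presents no peptide, was the gene that rose, from 3.29, 3.23 and 3.16 in CD11c- to 6.38, 7.07 and 7.67 in CD11c+ cells. Its difference was 3.81 (adjusted p = 0.0226, limma). Its CD11c- mean was not above background, so by the means of the fractions the rise was at least 2.38-fold when taken against the background level. This makes no allowance for the spread between mice. The other probe set of Hfe, not above background in either fraction, had 1.27 (adjusted p = 0.0732, limma). By the brighter probe set the difference was 4.17 without mouse A (adjusted p = 0.113, limma) and 3.80 without mouse C (adjusted p = 0.0779, limma). Without mouse D it was 3.47 and passed (adjusted p = 0.0224, limma). Fcgrt, the neonatal Fc receptor, which also pairs with β2-microglobulin, had 1.23 (adjusted p = 0.0588, limma), also with a CD11c- mean not above background. H2-Q4 had -0.57 (adjusted p = 0.19, limma) and was lower in 3 of 3 mice. H2-T24, another class I-like chain, had 0.60 (adjusted p = 0.364, limma) and was higher in 3 of 3. H2-Q10 had 1.73 (adjusted p = 0.128, limma), higher in 3 of 3 mice, with a CD11c- mean that was not above background. Cd1d1, which presents lipids to iNKT cells, had the lowest value of the list, -0.80 (adjusted p = 0.744, limma), which rests on mouse D, with differences of 0.50, 0.35 and -3.23 in mice A, C and D.

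**Figure D4:**
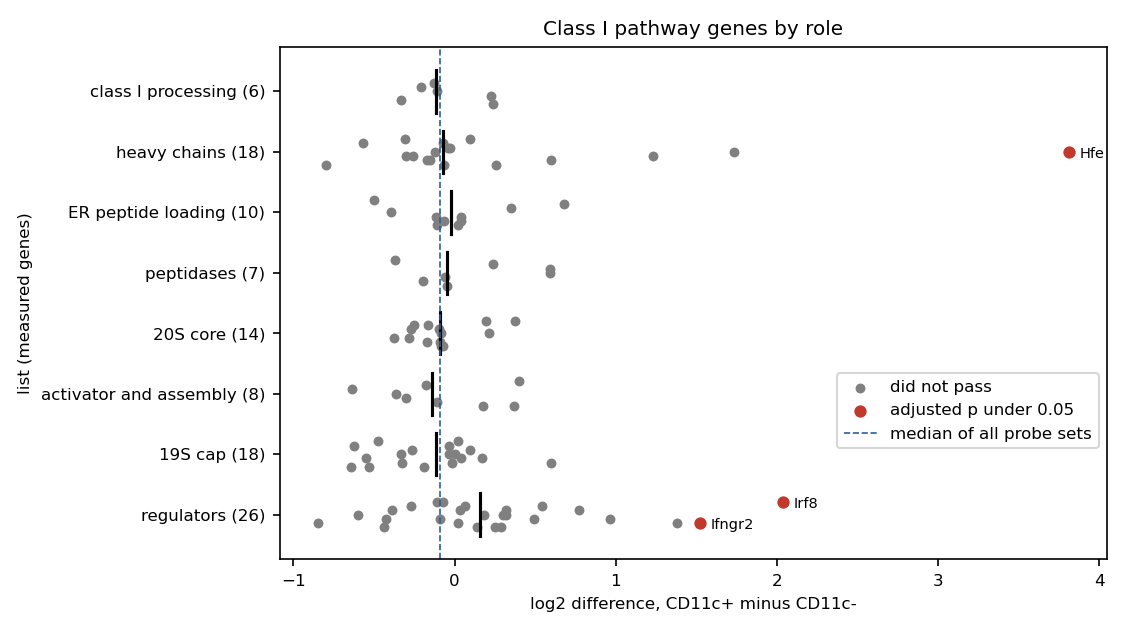
Log2 difference between the fractions (horizontal axis) of each measured gene of the class I processing set and of 7 pathway lists (vertical axis), with black ticks for list medians, red points for an adjusted p under 0.05 and a dashed line at the median of all probe sets, -0.09. The red points are Hfe, Irf8 and Ifngr2, all on the right.

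Of 26 measured regulators of interferon signalling and class I promoters, 2 were higher, 0 lower and 24 did not pass, with a median of 0.16. Irf8, an interferon regulatory factor of myeloid and lymphoid cells, rose from 5.42, 5.94 and 5.79 in CD11c- to 7.87, 7.76 and 7.62 in CD11c+ cells of mice A, C and D, by 2.04 (adjusted p = 0.0313, limma). Its other probe set had 1.89 (adjusted p = 0.0486, limma). There the CD11c- mean, 4.05, was not above background, and the CD11c+ value of mouse D, 5.39, was under it too. By the brighter probe set of Irf8 the CD11c- mean was just under the background, which makes the rise at least 3.90-fold by the means of the fractions. Ifngr2, a chain of the interferon-γ receptor, rose from 6.96, 6.83 and 5.81 to 8.24, 8.41 and 7.52, by 1.52 (adjusted p = 0.0354, limma). Its other probe set was not above background in either fraction. Ifngr2 did not pass without the mouse block (adjusted p = 0.139), with the mouse as a random block (0.0902) or with its probe sets averaged (0.0502), and Irf8 did not with arrays centred on their median (0.0563, all limma). Neither gene passed without mouse A (adjusted p = 0.14 for Irf8 and 0.157 for Ifngr2), without mouse C (0.102 and 0.155) or without mouse D (0.0543 and 0.09, all limma), with differences of 1.83 to 2.14 and 1.43 to 1.64. Without mouse A, 0 probe sets passed (limma; 2796 higher and 2767 lower at an unadjusted p under 0.05). The ligand-binding chain gene Ifngr1 had -0.44 (adjusted p = 0.251, limma). Irf1, an activator of Psmb9, Tap1 and class I genes, had 0.49 and was higher in 3 of 3 mice (adjusted p = 0.24, limma). Of the factors that bind class I promoters with NLRC5, Rfxank had -0.85 (adjusted p = 0.223, limma). Rfx5 had 0.25 (adjusted p = 0.801, limma), a value that rests on mouse D, with -0.12, -0.32 and 1.19 in mice A, C and D. Markers of basophils and mast cells (median difference 4.82), of monocytes and macrophages (2.36), of dendritic cells (1.49), of NK cells (0.96) and of B cells (0.82) had higher values in the same fraction as Irf8, Ifngr2 and Hfe, and their part in these rises was not tested.

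The direction of the small differences depends on what the arrays are held equal to. RMA makes the arrays' distributions nearly alike, and their medians ran from 4.40 to 4.54. When arrays were instead aligned by cyclic loess, or by subtracting each array's median, H2-T23 and Psmb10 stayed above 0 and Tapbp, Psmb8, Psmb9 and Nlrc5 below 0, with 0 of 6 past the threshold. Centring the arrays on the 4 CD3 chain genes, which were themselves at lower values in CD11c+ cells in 3 of 3 mice, moved the median of all probe sets from -0.09 to 0.65. All 6 genes were then above 0, from 0.41 for Nlrc5 to 0.98 for H2-T23. H2-T23 (adjusted p = 0.0144, limma), Psmb8 (adjusted p = 0.0479) and Psmb10 (adjusted p = 0.013) passed, as did 49.6% of all probe sets in the same direction. Relative to the median of all probe sets, a distance that centring whole arrays leaves as it is, H2-T23 was at 0.33, Psmb10 at 0.32, Psmb8 at -0.02, Tapbp at -0.04, Psmb9 at -0.12 and Nlrc5 at -0.24.

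**Figure D5:**
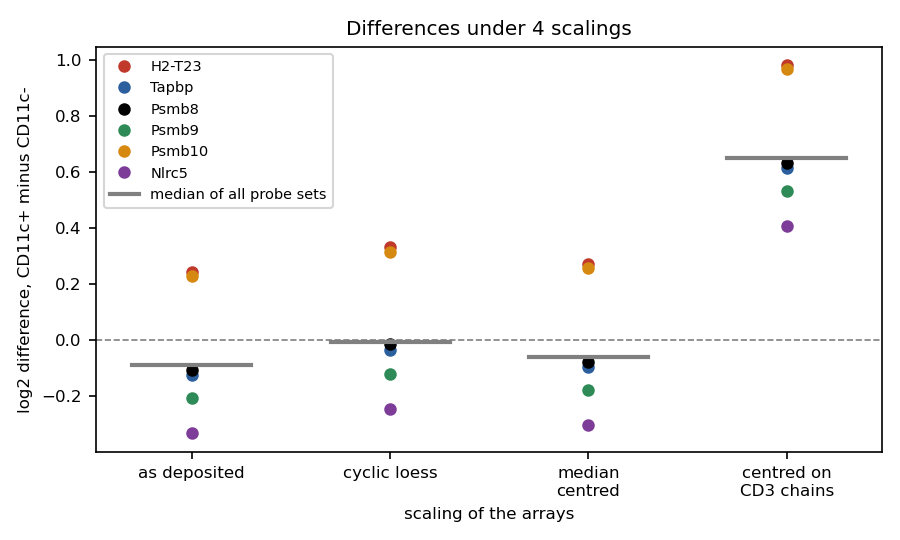
Log2 difference between the fractions (vertical axis) of the 6 genes (colours) under 4 scalings of the arrays (horizontal axis), with grey bars for the median of all probe sets. H2-T23 and Psmb10 are above 0 under all 4, and the other 4 genes turn from below 0 to above 0 after centring on the CD3 chains. The median lies at -0.09 in the deposited values and at 0.65 after centring on the CD3 chains.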

How the data were processed

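RNA of CD11c+ and CD11c- cells of 3 mice was measured on 6 Affymetrix HT MG-430 PM arrays. The authors deposited log2 values normalised by RMA, and the submitters' processing notes name RMA and limma; versions and a genome build were not given in the sources used here. Probe sets were named through the platform annotation. Differences were computed with limma 3.58.1 in R 4.3.3, with the mouse as a block (the labels put both arrays of a number in 1 mouse; deviations of paired arrays correlated at 0.122, 0.0758 and 0.109), and adjusted by Benjamini-Hochberg over 45141 probe sets with a threshold of 0.05. The procedure was tested on simulated data. The brightest probe set, by its mean over the arrays, stands for a gene. Members and lists were chosen with earlier results of these data known. Named were all members with all their probe sets, the counterparts of the immunoproteasome subunits, the genes of a list that passed or had its extreme values, and the sort markers; other genes named, such as H2-K1, Ciita, Irf1, Fcgrt and Rfx5, were chosen after their values were seen. Alternatives covered the block, scaling, probe set choice, a filter on dim probe sets, the variance model, the threshold and leaving out each mouse. The number of arrays limits the precision.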

Additional observations from a re-analysis of the deposited data

How the results depend on the processing

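For the 6 class I processing genes, 72 values under 12 alternatives gave 63 with the direction and side of the threshold unchanged, 7 of opposite sign and 2 that kept their sign and passed. Psmb8 after centring on the CD3 chains both changed sign and passed, and is counted among the 7. The count of genes past the threshold was 0 in each direction under every alternative but centring on the CD3 chains, where 3 were higher. There Tapbp had 0.61, Psmb8 0.63, Psmb9 0.53 and Nlrc5 0.41. When all probe sets of 1 gene were averaged, H2-T23 had -0.31, Psmb9 0.0055 and Psmb9 less Psmb6 0.17, and Psmb8 ran from -0.2133 to 0.0452 when 1 mouse was left out, the highest without mouse D. Without 1 mouse the differences ran from -0.0423 to 0.33 for Psmb8 less Psmb5, from -0.32 to 0.16 for Psmb9 less Psmb6 and from -0.65 to 0.12 for Psmb10 less Psmb7. Over all probe sets, 432 were higher and 76 lower. These counts became 684 and 211 with no replicate block, 812 and 316 with the mouse as a random block, 668 and 193 with a trended and robust variance, and 22412 and 232 after centring on the CD3 chains. With no shared variance they were 0 and 0 (1651 and 2585 at an unadjusted p under 0.05, limma). Lower calls numbered 41 of all 45141 probe sets after cyclic loess. On other totals, they numbered 151 of 17097 genes with the mean of probe sets and 140 of the 22570 probe sets above the median mean. At an adjusted p under 0.1 there were 845 and 380, and under 0.01 there were 123 and 2. Without 1 mouse the higher calls ran from 0 to 348 and the lower from 0 to 44, with 0 and 0 without mouse A. The causes were not tested. The paired and unpaired fits gave the 6 genes the same calls, and 3 mice limit what can be detected.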

Other observations

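Of 21 measured genes of the interferon response, 1 was higher in CD11c+ cells (0.957% of all probe sets were), 0 were lower and 20 did not pass, with a median difference of 0.14. Oasl2, a gene of the 2'-5' oligoadenylate synthetase family, rose from 5.08, 5.43 and 3.62 in the CD11c- cells of mice A, C and D to 8.55, 8.28 and 7.70 in the CD11c+ cells, by 3.47 (adjusted p = 0.0216, limma). Its CD11c- mean was not above background, so the rise was at least 5.22-fold by the means of the fractions. Without mouse A the adjusted p was 0.19 (limma). Mx1, an antiviral GTPase, had 1.08 (adjusted p = 0.136, limma) and Usp18, which dampens interferon signalling, had 1.52 (adjusted p = 0.166, limma), both with a CD11c- mean not above background. Igtp, a GTPase induced by interferon-γ, had the lowest value, -1.19 (adjusted p = 0.157, limma). Of the 21 genes, 10 were not above background in either fraction. Markers of basophils and mast cells, monocytes and macrophages, and dendritic cells had higher values in the same fraction as Oasl2, with median differences of 4.82, 2.36 and 1.49, and their part in its rise was not tested.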
